A study of Mus musculus with 6 samples.

Results

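Expression of the MEF2 transcription factor genes Mef2a, Mef2c and Mef2d was examined in cultured mouse muscle stem cells (MuSCs). These are 3 of the 18943 genes in the deposited table, chosen by gene symbol and described over all 6 libraries. The cells came from wild-type C57BL/6 mice at 8 weeks of age, were purified by fluorescence-activated cell sorting (FACS) and were kept in culture for 5 days before bulk RNA-seq. They received the solvent DMSO, Endothelin-3 (ET-3) or Neurotensin (NT), peptide ligands of G-protein-coupled receptors. According to the labels each peptide was given at 100 nM, while the culture methods of the study name higher concentrations. Each of the 3 groups had 2 libraries, which the study calls biological samples without tying each library to a culture or animal. The p-values therefore measure the spread between these libraries, which may in part be technical.

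MEF2 factors bind an A/T-rich DNA element through their MADS box and activate muscle genes together with MyoD-family proteins such as myogenin. Class IIa histone deacetylases hold them inactive, calcium-dependent kinases and protein kinase D release that hold, and p38 kinases phosphorylate MEF2 factors directly. Mef2a and Mef2d are made in many cell types and in muscle precursors, whereas Mef2c is switched on as myoblasts differentiate into muscle fibers.

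The promoter windows of the 3 genes are shown because MEF2 factors can act on MEF2 genes themselves. Each window holds 250 bases before and 50 bases from the transcription start in RefSeq's annotation of the mouse assembly GRCm38.p6, written 5′ to 3′ on the gene's own strand, with matches to the MEF2 element or to the E-box (CANNTG, the site of MyoD-family proteins) in capitals. Both strands were searched, and positions count from the first transcribed base as 1. The windows were chr7:67372809-67373108 on the minus strand for Mef2a, chr13:83503784-83504083 on the plus strand for Mef2c and chr3:88142122-88142421 on the plus strand for Mef2d.
Mef2a: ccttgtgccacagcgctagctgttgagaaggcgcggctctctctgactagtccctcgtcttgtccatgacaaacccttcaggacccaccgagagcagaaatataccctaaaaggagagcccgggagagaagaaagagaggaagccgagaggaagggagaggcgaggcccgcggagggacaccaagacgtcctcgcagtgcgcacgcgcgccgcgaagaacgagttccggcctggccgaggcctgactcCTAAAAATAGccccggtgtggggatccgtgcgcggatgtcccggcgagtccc
Mef2c: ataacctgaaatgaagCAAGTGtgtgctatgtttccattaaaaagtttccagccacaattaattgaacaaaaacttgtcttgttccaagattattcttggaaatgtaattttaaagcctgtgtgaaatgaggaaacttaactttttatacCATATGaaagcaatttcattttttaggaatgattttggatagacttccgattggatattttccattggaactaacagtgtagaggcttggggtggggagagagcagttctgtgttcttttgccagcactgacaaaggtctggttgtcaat
Mef2d: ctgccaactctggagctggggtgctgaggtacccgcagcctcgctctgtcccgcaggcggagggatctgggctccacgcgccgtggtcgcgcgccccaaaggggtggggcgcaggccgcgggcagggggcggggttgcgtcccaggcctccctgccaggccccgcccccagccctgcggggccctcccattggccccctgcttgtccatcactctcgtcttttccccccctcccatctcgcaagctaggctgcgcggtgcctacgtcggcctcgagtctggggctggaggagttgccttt

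The Mef2a window held 1 MEF2 element, CTAAAAATAG, from −2 to 8, across the start itself. The first Mef2c window held 2 E-boxes, CAAGTG from −234 to −229 and CATATG from −100 to −95. The Mef2d window held neither motif, and none of the windows held a CArG box, the site of serum response factor. Among 32851 promoter windows of the same length, 3.19% held the MEF2 element, 72.3% an E-box and 1.63% a CArG box. The base composition set the promoters apart: GC made up 62.3% of the Mef2a window, 35.7% of the first Mef2c window and 72.0% of the Mef2d window, against a median of 52.7% over all windows. RefSeq lists 2 further Mef2c starts inside the gene, 19622 and 69573 bases downstream of the first. Their windows, chr13:83523406-83523705 and chr13:83573357-83573656, held no MEF2 element, and the second of them held 1 E-box, CAGATG, from −245 to −240. A match is a description of the letters and not a measured binding site.

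The deposited values are whole numbers that behave as rounded read counts, each library having been multiplied by its own factor, and are called scaled read counts here. They summed to between 4214458 and 4600575 per library, and estimated factors of 0.781 to 1.1915 place 3628952 to 5396233 reads on genes. At a value of 100, the counting error of a single library was 8.84% to 10.92% of the value. The ET-3 libraries differed from each other by no more than counting error (mean chi-square per gene 0.885, where 1 is sampling noise), as did the NT libraries (0.927), while the DMSO libraries differed by more (1.44). The tests use the 6 libraries as labelled, and are given again with the mean of each treated pair taken as 1 sample. That second fit takes each gene's own spread from the DMSO pair alone and holds no spread within treated groups. A call lost there therefore reflects fewer samples and the DMSO spread, not variation between treated cultures. Differences were tested with limma on log2(value + 1) over the 13921 genes whose mean value reached 5, with Benjamini-Hochberg adjustment over all of them. Over all tested genes, the median change was −0.01 on the log2 scale in both comparisons against DMSO, which share the same DMSO libraries.

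Mef2c was almost lost from cells cultured with either peptide, 168-fold or more below its DMSO level. Mef2c (ENSMUSG00000005583, chr13:83504034-83667080, plus strand) had scaled read counts of 1927 and 1930 in the DMSO libraries, 8 and 10 in the ET-3 libraries, and 12 and 11 in the NT libraries. The DMSO and treated values did not overlap, and the treated libraries lay within a few reads of each other. The group means were 1928.5 ± 2.12 (SD, n = 2 libraries) under DMSO, 9.0 ± 1.41 under ET-3 and 11.5 ± 0.707 under NT, so that 0.467% of the DMSO level was measured under ET-3 and 0.596% under NT. The log2 fold change was −7.60 (SE 0.17, 95% interval −7.98 to −7.22, limma with Benjamini-Hochberg adjusted p = 1.49e-09) under ET-3 and −7.27 (SE 0.17, −7.65 to −6.89, adjusted p = 1.80e-09) under NT. The ratio of group means gave 214-fold and 168-fold lower values. With treated pairs averaged, the limma adjusted p was 0.0221 and 0.0244.

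The low values of Mef2c rest on few reads. The estimated factors give 1960 and 1685 reads in the DMSO libraries, 7 (exact Poisson 95% interval 2.8 to 14.4) and 9 (4.1 to 17.1) in the ET-3 libraries, and 14 (7.7 to 23.5) in each NT library, and these intervals cover counting error only. Mef2c was thus still detected in all 4 treated libraries, at a level where ET-3 and NT intervals overlap. In bulk RNA, fewer Mef2c-expressing cells and less Mef2c RNA per cell cannot be told apart.

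Mef2a was lower with both peptides, at 53.2% to 53.6% of its DMSO level. Mef2a (ENSMUSG00000030557, chr7:67231163-67372858, minus strand) had scaled read counts of 2130 and 2237 under DMSO, 1169 and 1170 under ET-3, and 1191 and 1134 under NT. All 4 treated libraries lay below both DMSO libraries, and the ET-3 values fell inside the range of the NT values. The means were 2183.5 ± 75.7 (SD, n = 2), 1169.5 ± 0.707 and 1162.5 ± 40.3, which left 53.6% and 53.2% of the DMSO level. The log2 fold change was −0.90 (SE 0.05, 95% interval −1.0 to −0.8, limma adjusted p = 9.94e-08) under ET-3 and −0.91 (SE 0.05, −1.01 to −0.81, adjusted p = 1.01e-07) under NT. With treated pairs averaged, the limma adjusted p was 0.0265 and 0.0288. Scaling each library to its total moved the changes to −0.81 and −0.80.

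Mef2d was also lower with both peptides, at 62.2% to 62.5% of its DMSO level. Mef2d (ENSMUSG00000001419, chr3:88142372-88172086, plus strand) had scaled read counts of 1511 and 1655 under DMSO, 958 and 1020 under ET-3, and 985 and 984 under NT. Again the treated values did not reach the DMSO values, and the ET-3 libraries enclosed the NT libraries. The means were 1583.0 ± 102.0 (SD, n = 2), 989.0 ± 43.8 and 984.5 ± 0.707. The log2 fold change was −0.68 (SE 0.05, 95% interval −0.8 to −0.56) in each comparison, with limma adjusted p of 2.46e-06 for ET-3 and 2.49e-06 for NT. Of the 3 genes Mef2d came nearest to the threshold when treated pairs were averaged, with limma adjusted p of 0.0457 and 0.0482.

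By adjusted p alone, 3 of 3 genes were lower under ET-3 and 3 of 3 under NT, against 33.2% and 32.5% of all tested genes. With a 2-fold change required as well, Mef2c was the single gene called, 1 of 3 in each comparison, against 14.9% and 13.2% of all tested genes. Mef2a (1.87-fold and 1.88-fold lower) and Mef2d (1.6-fold and 1.61-fold) stayed short of 2-fold. The fourth family gene, Mef2b (ENSMUSG00000079033, chr8:70139711-70167488), was at the edge of detection, with scaled read counts of 4 and 1 under DMSO, 1 and 1 under ET-3, and 3 and 2 under NT. Its mean lay under 5 and it was not tested.

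**Figure D1:**
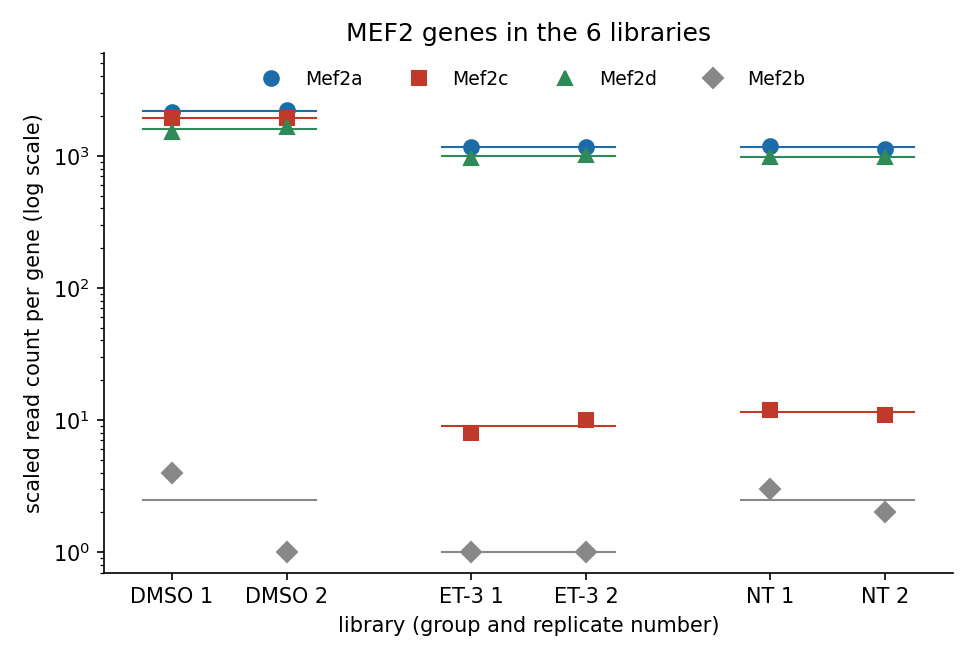
Scaled read counts of Mef2a, Mef2c, Mef2d and Mef2b (vertical axis, log scale) in the 6 libraries (horizontal axis, group and replicate number), with points for single libraries and lines for group means. Mef2c fell from 1927 and 1930 under DMSO to between 8 and 12 in the treated libraries, whereas Mef2a and Mef2d, at 1511 to 2237 under DMSO, fell to between 958 and 1191.

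The gene models bear on how these values can be read. In the GENCODE M21 annotation Mef2a has 12 transcripts over 14681 exonic bases, Mef2c 31 transcripts over 15715 bases and Mef2d 7 transcripts over 5985 bases. Reads were summed per gene, so the muscle-specific and ubiquitous splice forms, by which MEF2D in particular differs between myoblasts and muscle fibers, are not separated. Mef2a shares 302 exonic bases with Lysmd4 on the opposite strand, a gene at 117 and 119 under DMSO, 23 and 35 under ET-3, and 34 and 37 under NT. Mef2d shares 531 exonic bases with the antisense gene 1700113A16Rik, at 4 to 11 in every library, and Mef2c shares none. Library kit and strand setting are named differently in the sources, so overlapping reads could not be assigned by strand, but the neighbours' values are small beside those of Mef2a and Mef2d.

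ET-3 and NT were then compared with each other, a question about whether both ligands leave the MEF2 genes at the same level. None of the 3 genes passed limma's test, against 2.69% of all tested genes at adjusted p alone. The NT minus ET-3 difference on the log2 scale was −0.01 for Mef2a (95% interval −0.11 to 0.09, limma adjusted p = 0.948), −0.01 for Mef2d (−0.13 to 0.11, adjusted p = 0.975) and 0.33 for Mef2c (−0.05 to 0.71, adjusted p = 0.316). Between these libraries, the intervals hold the difference to a small part of the change against DMSO. The spread within treated pairs was no more than counting error and may be technical. The intervals therefore may not bound a difference between separate cultures, and they do not show that the ligands act alike. Over all genes, 4 genes passed both thresholds as lower and 7 as higher under NT than ET-3, 375 of 13921 passed adjusted p alone and 2765 an unadjusted p of 0.05.

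Mef2c stood far out in the tail of the fold-change distribution, while Mef2a and Mef2d lay on its lower shoulder. Ordered from the most lowered gene, Mef2c was 46th of 13921 under ET-3 and 51st under NT. Mef2a was 2352nd and 2069th, with 16.9% and 14.9% of genes at or below its log2 fold change, and Mef2d was 2943rd and 2638th (21.1% and 18.9%). The place of Mef2c depends on the pseudocount added before the log, and was 63rd and 65th with 0.5 and 14th and 18th with 5.

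**Figure D2:**
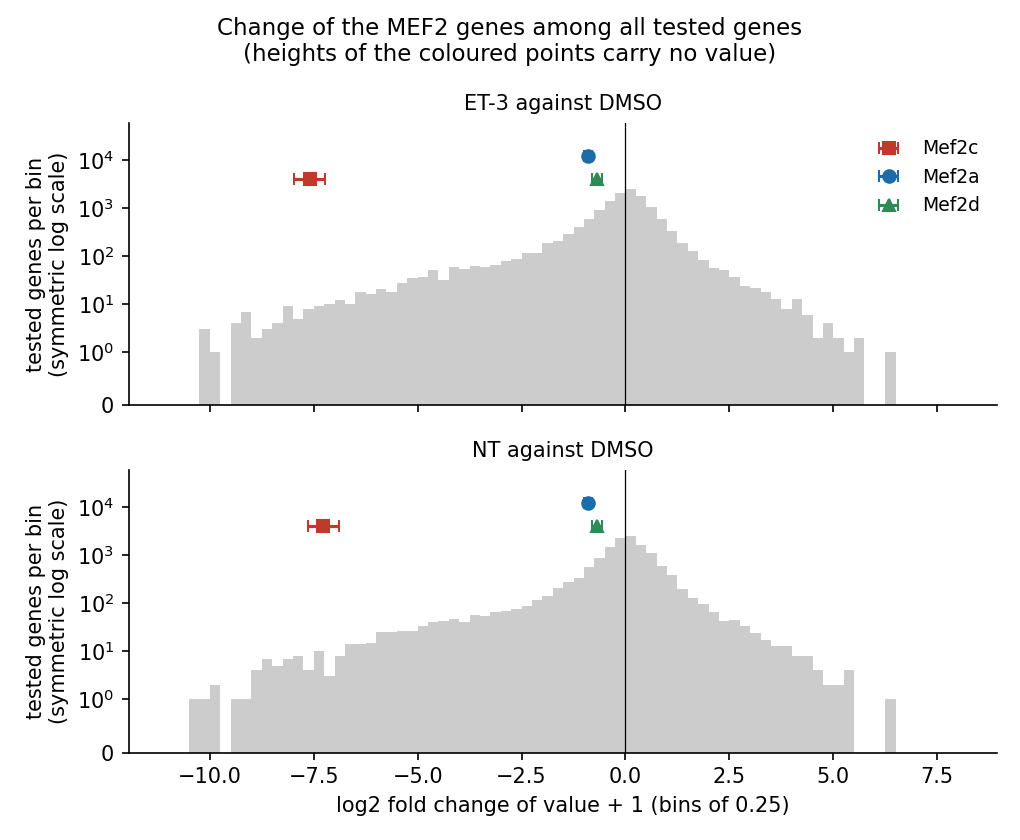
Number of tested genes (vertical axis, symmetric log scale) by log2 fold change against DMSO (horizontal axis, bins of 0.25) for ET-3 (top) and NT (bottom). Coloured points with 95% intervals mark the MEF2 genes at heights that carry no value, Mef2c at −7.60 and −7.27 and the other two between −0.91 and −0.68.

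The make-up of the MEF2 transcript pool changed along with the fall of Mef2c. Summed over the 3 genes, the scaled read counts were 5568 and 5822 under DMSO, 2135 and 2200 under ET-3, and 2188 and 2129 under NT. To compare levels between genes, values were divided by the exonic length and by the library total. On that scale of levels per kilobase, with library totals set equal, Mef2d stood at 55.2 and 60.1 under DMSO and 37.0 to 39.7 in the treated libraries, Mef2a at 31.8 and 33.1 against 18.3 to 19.0, and Mef2c at 26.8 and 26.7 against 0.118 to 0.179. The order was therefore Mef2d, Mef2a, Mef2c in every library, with no overlap between neighbours.

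As a share of the summed level per exonic base, Mef2c went from 22.9% ± 0.928 (SD, n = 2) under DMSO to 0.233% ± 0.0296 under ET-3 and 0.299% ± 0.0148 under NT. Mef2a rose as a share from 27.8% ± 0.193 to 32.5% ± 0.967 and 32.4% ± 0.738, and Mef2d from 49.3% ± 1.12 to 67.3% ± 0.938 and 67.3% ± 0.753, although both fell in level. The order of Mef2a and Mef2d depends on the length used. Per base of the longest transcript, Mef2a led in every group, with 39.6% of the DMSO level, 53.4% of the ET-3 level and 53.3% of the NT level, ahead of Mef2d with 29.5%, 46.3% and 46.3%. Mef2c held 30.9%, 0.362% and 0.465% on that scale. With either length, Mef2c fell from the 86th percentile or above among all genes to the 24th or below.

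**Figure D3:**
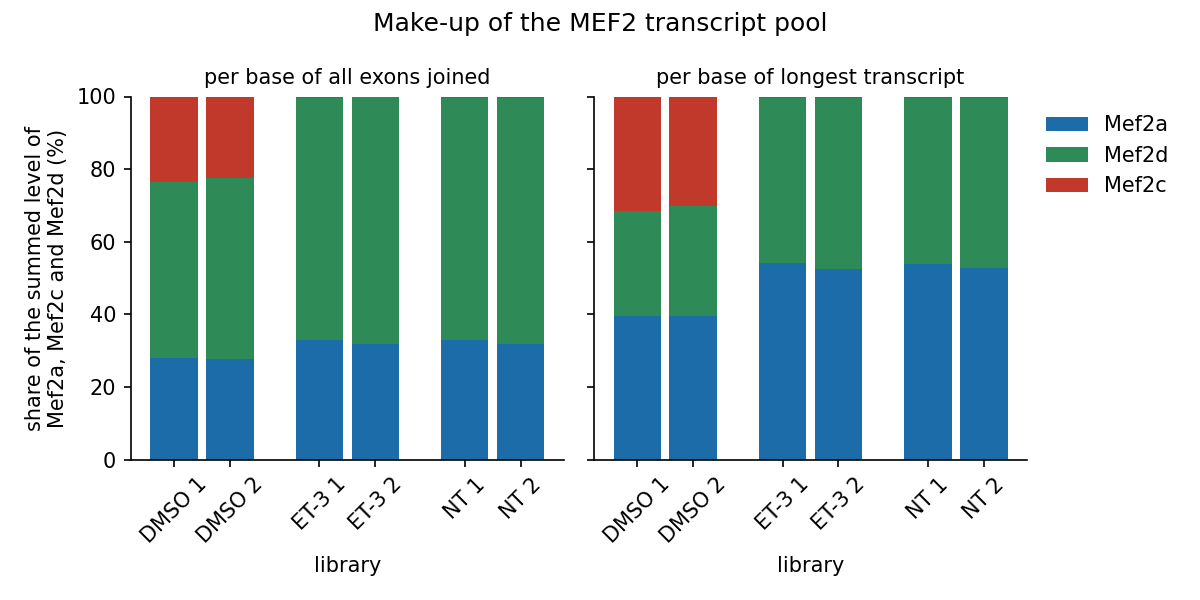
Share of Mef2a, Mef2d and Mef2c in their summed level per base (vertical axis, percent) in each of the 6 libraries (horizontal axis), with level divided by all exons joined (left) or by the longest transcript (right). Mef2c takes 22.3% to 31.6% under DMSO and is too small to see in the treated libraries.

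Apart from the 1 added before the log, ratios within a library do not depend on how libraries were scaled. The added number matters for Mef2c, at 8 to 12 in the treated libraries. The mean change of Mef2c to Mef2a was −6.53 with 1 added, −6.60 with 0.5 and −6.09 with 5. The log2 ratio of Mef2c to Mef2a was −0.14 and −0.21 under DMSO, −7.02 and −6.73 under ET-3, and −6.52 and −6.56 under NT. The ratio of Mef2c to Mef2d moved alike, from 0.35 and 0.22 to between −6.74 and −6.25. Mef2a fell slightly more than Mef2d, with a log2 ratio of 0.50 and 0.43 under DMSO, 0.29 and 0.20 under ET-3, and 0.27 and 0.20 under NT, a mean change of −0.22. Treated and DMSO libraries did not overlap in any of the 3 ratios. How often ratios of other genes separate in this way was not tested. Changes against DMSO were common, with 8873 and 8659 of 13921 tested genes passing limma's adjusted p in either direction under ET-3 and NT. An exact two-sided permutation test of all 4 treated against both DMSO libraries gave p = 0.0667 for each ratio, also after Benjamini-Hochberg adjustment over the 3, which is the smallest p that 15 splits allow and cannot pass 0.05.

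Genes with the pattern most like each MEF2 gene were found as the smallest root mean square difference of centred log2(value + 1) over the 6 libraries. Those nearest to Mef2c were Mb, which encodes the oxygen-binding protein myoglobin (difference 0.132), Actn2, a Z-disc actinin (0.152), and B3galt2, a galactosyltransferase (0.196). Actn2 had scaled read counts of 1948 and 2122 under DMSO, 8 and 11 under ET-3, and 14 and 9 under NT, close to Mef2c in level as well. Only 4 genes lay within 0.2 of Mef2c, against 1139 for Mef2a and 1876 for Mef2d. The nearest to Mef2a were Celf2 (0.0174), Sypl (0.0261) and Pacs2 (0.0278), and the nearest to Mef2d were Prrc2b (0.0186), Zfp36 (0.0231) and Ece1 (0.0258). Mef2c rests on 7 to 14 reads in each treated library, against 804 or more for Mef2a and Mef2d. Counting error alone therefore widens its differences, and these counts cannot be compared as measures of how rare a pattern is.

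Genes known to be controlled by MEF2 were examined next, in a list of 25 muscle and stimulus-dependent genes, all tested. The list was chosen with earlier results of these data known, so its counts describe the genes and do not test MEF2 activity. Of the 25 genes, 23 were lower, 1 was higher and 1 did not pass limma's adjusted p in each comparison. Over all tested genes, 33.2% and 32.5% were lower and 30.6% and 29.7% higher under ET-3 and NT. Of the list, 19 genes were at least 2-fold lower in each comparison, against 14.9% and 13.2% of all tested genes. The median log2 fold change was −4.93 under ET-3 (−4.65 with genes at 0 set to their bound) and −4.88 under NT, against −0.01 over all tested genes. With treated pairs averaged, 20 were lower in each comparison and 0 higher, against 18.2% and 15.7% of all tested genes lower and 10.5% and 9.16% higher.

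Several genes of the list were almost absent after treatment. Hrc, a calcium-binding protein of the sarcoplasmic reticulum, had scaled read counts of 1050 and 1148 under DMSO, 0 and 0 under ET-3, and 3 and 1 under NT. Ckm, the muscle creatine kinase, had 545 and 520, then 0 and 0, then 0 and 1. Against a floor of 3 reads per library, these are values at least 307-fold and at least 149-fold lower under ET-3. Srpk3, a muscle kinase of splicing factors, was at 606 and 651 under DMSO and at 0 to 3 in the treated libraries. The actin-binding Xirp2 (561 and 462, then 0 to 2) and Mb (507 and 557, then 1 or 2) behaved alike. Myom1, an M-band protein with counts high enough for a fold, went from 1412 and 1445 to 15 and 10 under ET-3 and 24 and 16 under NT, a log2 fold change of −6.75 and −6.12 (SE 0.22, limma adjusted p = 6.69e-09 and 1.36e-08).

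The list was not uniform. Des, the muscle intermediate filament, fell by 0.34 under ET-3 and 0.69 under NT on the log2 scale, and Eno3, the muscle enolase, by 0.21 and 0.45. Neither Des nor Eno3 passed with treated pairs averaged, and Eno3 under ET-3 also lost its call with no filter, with library totals and when DMSO replicate 2 or either ET-3 library was left out. Nr4a1, an immediate-early nuclear receptor that MEF2 controls in response to calcium, was the member that rose, from 50 and 40 under DMSO to 77 and 79 under ET-3 and 75 and 85 under NT (log2 fold change 0.79 and 0.82, SE 0.17, limma adjusted p = 0.00223 and 0.00182, but 0.107 and 0.104 with treated pairs averaged). Klf2, an immediate-early zinc-finger gene, did not pass, with 138 and 162, 169 and 150, and 153 and 134.

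Promoter windows were found for 21 of the 25 genes, and 5 held a MEF2 element. They are shown with 10 bases on each side on the gene's strand and the element in capitals, because both genes that fell to near 0 and a gene that did not pass the test are among them. They lie at chr4:95052236-95052265 (minus strand), chr8:72318934-72318963 (plus), chr11:5803857-5803886 (minus), chrX:73774328-73774357 (plus) and chr2:67445918-67445947 (plus) of GRCm38.p6.
Jun: acatcatgggCTATTTTTAGggattgactg
Klf2: tataccgcggCTAAATTTAGgctgagcccg
Pgam2: ttttgtgagaCTATTTTTAAgttcagctcc
Srpk3: agctgggaggCTATTTATAAaggcgagtga
Xirp2: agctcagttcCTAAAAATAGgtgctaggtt

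The element began at −33 in Jun, −118 in Klf2, −80 in Pgam2, −67 in Srpk3 and −74 in Xirp2. Pgam2, the muscle phosphoglycerate mutase, went from 466 and 540 under DMSO to between 7 and 12 in the treated libraries, and Srpk3 and Xirp2 to between 0 and 3, whereas Jun, the AP-1 subunit, fell by 0.25 and 0.43 on the log2 scale and Klf2 did not pass. The Jun calls were lost with treated pairs averaged (limma adjusted p = 0.211 and 0.108), and under ET-3 also without DMSO replicate 2 or ET-3 replicate 2. An E-box was present in 16 of the 21 genes and a CArG box in 2, Meg3 and Myom1. These are counts per gene. Of the 26 windows of these genes, 5 held the MEF2 element, 20 an E-box and 2 a CArG box. Over all 32851 windows the shares were 3.19%, 72.3% and 1.63%. Genes whose windows hold the element thus ranged from no call to near absence.

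Partner factors and coactivators of MEF2 divided. Of 17 tested genes, 11 were lower and 3 higher under ET-3 and 12 lower and 3 higher under NT by limma's adjusted p, with 5 at least 2-fold lower in each. Over all tested genes, 33.2% and 32.5% were lower, 30.6% and 29.7% higher, and 14.9% and 13.2% at least 2-fold lower. The median log2 fold change was −0.38 and −0.45, and with treated pairs averaged 7 and 8 were lower (18.2% and 15.7% of all tested genes). Myog, which encodes the differentiation factor myogenin and is also in the target list, had scaled read counts of 1157 and 1335 under DMSO, 31 and 38 under ET-3, and 31 and 28 under NT (log2 fold change −5.14 and −5.35, SE 0.14). Myf6, the late MyoD-family factor, fell from 143 and 121 to 15 and 8 under ET-3 and 15 and 12 under NT. The earlier factors did not share that loss: Myod1 had 1324 and 1444 under DMSO, 1539 and 1449 under ET-3, and 1192 and 1100 under NT, and Myf5 had 506 and 466, then 483 and 434, then 408 and 400. Neither passed under ET-3, and under NT Myod1 fell by 0.27 and Myf5 by 0.26 on the log2 scale (limma adjusted p = 0.00243 and 0.00598). Those calls were lost with treated pairs averaged (limma adjusted p = 0.129 and 0.131), for Myod1 also without DMSO replicate 2, and for Myf5 with library totals and without DMSO replicate 1 or NT replicate 2. Myod1 under ET-3 passed as higher with libraries scaled to their total or upper quartile.

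Among coactivators, Mamstr, a myocardin-related partner of MEF2, fell from 761 and 864 to 194 and 231 under ET-3 and 193 and 199 under NT (log2 fold change −1.93 and −2.04, SE 0.09). Kat2b, the acetyltransferase PCAF, fell from 159 and 134 to between 38 and 58 (−1.76 and −1.62, SE 0.22). Vgll2, a cofactor of TEAD and MEF2 in muscle, fell less, from 621 and 675 to between 326 and 379. These genes passed under every alternative tried. Myocd, the founding myocardin gene, was low throughout, at 23 and 15 under DMSO and 1 to 7 in the treated libraries, and its limma adjusted p rose to 0.0551 and 0.0956 with treated pairs averaged. It also lost its call when DMSO replicate 1 was left out in both comparisons, and under NT with no filter and when DMSO replicate 2 or NT replicate 1 was left out. The genes that rose were Carm1, an arginine methyltransferase, Maml1, a mastermind coactivator, and Tcf3, an E-protein partner of MyoD, by between 0.39 and 0.52 on the log2 scale.

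Among class IIa deacetylases, the repressors of MEF2, each gene had its own course. Hdac9, itself a MEF2 target and in both lists, had scaled read counts of 90 and 85 under DMSO, 4 and 0 under ET-3, and 1 and 1 under NT (limma adjusted p = 4.77e-05 and 4.08e-05). Hdac7 rose from 253 and 307 to 528 and 444 under ET-3 and 500 and 522 under NT (log2 fold change 0.79 and 0.87, SE 0.10), and its limma adjusted p was 0.0799 and 0.0754 with treated pairs averaged. Hdac5, at 1012 and 1150 under DMSO, fell to 867 and 835 under ET-3 and 841 and 808 under NT (−0.34 and −0.39, SE 0.06), and also missed the threshold with treated pairs averaged (limma adjusted p = 0.145 and 0.126). Hdac4 passed under ET-3 (−0.43, limma adjusted p = 0.00322) and not under NT (−0.13, adjusted p = 0.286), while the difference between the 2 ligands did not pass (0.30, adjusted p = 0.126). The Hdac4 call under ET-3 was lost without DMSO replicate 1 and with treated pairs averaged.

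Over the 9 deacetylases and other repressors, 3 were lower and 5 higher under ET-3, and 2 lower and 4 higher under NT. Of all tested genes, 33.2% and 32.5% were lower and 30.6% and 29.7% higher. The median log2 fold change was 0.18 and 0.07. The remaining rises were small, as in Sirt1, a deacetylase of MEF2 (0.38 and 0.51) and Cabin1, a calcineurin-binding repressor of MEF2 (0.23 and 0.28). When treated pairs were averaged, 1 was lower in each comparison, 0 were higher under ET-3 and 1 was higher under NT, against 18.2% and 15.7% lower and 10.5% and 9.16% higher over all tested genes. Apart from Hdac9, the log2 fold changes of the repressor genes stayed within 1 of 0.

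The kinases and phosphatases that act on MEF2 or its deacetylases included genes called in each direction. Of 28 tested genes, 13 were lower and 8 higher under ET-3 and 12 lower and 9 higher under NT, with medians of −0.14 and −0.05, while 33.2% and 32.5% of all tested genes were lower and 30.6% and 29.7% higher. The share of the list called higher was thus near that of all genes. Averaging treated pairs gave 7 and 5 lower and 4 and 4 higher, against 18.2% and 15.7% lower and 10.5% and 9.16% higher over all genes. A pair of calcium and calmodulin-dependent kinase genes were among those that fell most. Camk2a had scaled read counts of 268 and 241 under DMSO, 5 and 10 under ET-3, and 4 and 5 under NT (log2 fold change −4.97 and −5.54, SE 0.32, limma adjusted p = 6.17e-07 and 3.13e-07). Camk2b went from 72 and 73 to between 2 and 4. The broadly expressed Camk2d and Camk2g fell by 0.32 and 0.34 under ET-3 and by 0.20 and 0.25 under NT. With treated pairs averaged, Camk2g under ET-3 was the single one of these 4 calls that held, and Camk2d under NT also lost its call with library totals and without DMSO replicate 1 or NT replicate 1.

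Kinases that phosphorylate class IIa deacetylases did not share a direction. Prkd1, protein kinase D1, fell from 223 and 209 to between 79 and 97 (log2 fold change −1.25 and −1.29, SE 0.13), and Sik1, a salt-inducible kinase, fell from 1192 and 1219 to 519 and 482 under ET-3 and 573 and 555 under NT (−1.27 and −1.09, SE 0.05). Sik3 rose from 486 and 478 to between 627 and 692 (0.38 and 0.46, SE 0.05), and passed with treated pairs averaged (limma adjusted p = 0.0402 and 0.0371). Sik2 (0.26 and 0.38) and Prkd3 (0.17 and 0.22) were also called higher, calls that were lost with treated pairs averaged, and Prkd2 did not pass (0.05 and 0.33). Sik2 under ET-3 also lost its call without any single library other than ET-3 replicate 1, Sik2 under NT without DMSO replicate 2, and Prkd3 under ET-3 without DMSO replicate 2 or ET-3 replicate 2. Of the p38 family, Mapk13, which encodes p38 delta, was nearly absent under DMSO and rose from 4 and 7 to 294 and 272 under ET-3 and 245 and 275 under NT (log2 fold change 5.49 and 5.36, SE 0.21, limma adjusted p = 1.58e-08 and 2.03e-08). Mapk14, p38 alpha, rose by 0.27 and 0.25, from 548 and 567 to between 658 and 687, a call lost with treated pairs averaged (limma adjusted p = 0.0649 and 0.0743). Mapk11, p38 beta, rose from 73 and 60 to between 84 and 103 (0.50 and 0.48, limma adjusted p = 0.0184 and 0.0218). Its calls were lost with treated pairs averaged and without DMSO replicate 2, under ET-3 also without either ET-3 library and under NT without NT replicate 2. Mapk12, p38 gamma, did not pass, with 134 and 135, 131 and 108, and 107 and 115. Camk1d, another calcium and calmodulin-dependent kinase gene, rose from 33 and 30 to between 98 and 114 (1.70 and 1.72, SE 0.15). The p38 genes thus differed from each other in level and in change.

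Among regulators of MEF2 splicing and stability, more genes were called lower than higher. Srpk3, described with the targets, belongs to this list too and is among those called lower. Of 9 tested genes, 6 were lower and 2 higher in each comparison, 4 at least 2-fold lower, with medians of −0.89 and −0.91, and 5 lower and 1 higher in each with treated pairs averaged. Over all tested genes, 33.2% and 32.5% were lower, 30.6% and 29.7% higher and 14.9% and 13.2% at least 2-fold lower, and with treated pairs averaged 18.2% and 15.7% were lower and 10.5% and 9.16% higher. Rbfox1, a splicing factor that favors inclusion of the muscle exon of Mef2d, fell from 366 and 323 under DMSO to 18 and 20 under ET-3 and 22 and 21 under NT (log2 fold change −4.11 and −3.94, SE 0.17). Rbfox2, its more widely expressed relative, fell from 2585 and 2681 to between 1268 and 1304 (−1.03 in each, and −0.94 and −0.92 when libraries were scaled to their total, short of 2-fold). Celf2, the gene with the pattern most like Mef2a, fell from 1821 and 1838 to between 950 and 1000. Ptbp1, a splicing repressor that opposes muscle exons, rose from 851 and 831 to 1649 and 1562 under ET-3 and 1400 and 1328 under NT (0.93 and 0.70, SE 0.05).

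Ubiquitin-ligase genes of the list changed in opposite directions. Fbxo32, the muscle F-box gene atrogin-1, fell from 396 and 346 to between 141 and 185 (log2 fold change −1.19 and −1.13, SE 0.13). Skp2, an F-box gene of cycling cells, rose from 335 and 283 to between 523 and 588 (0.80 and 0.86, SE 0.08), a call lost with treated pairs averaged (limma adjusted p = 0.0682 and 0.0662). Rbfox3 has no row in the table. The transcripts of these regulators were measured per gene, and MEF2 splice forms were not.

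**Figure D4:**
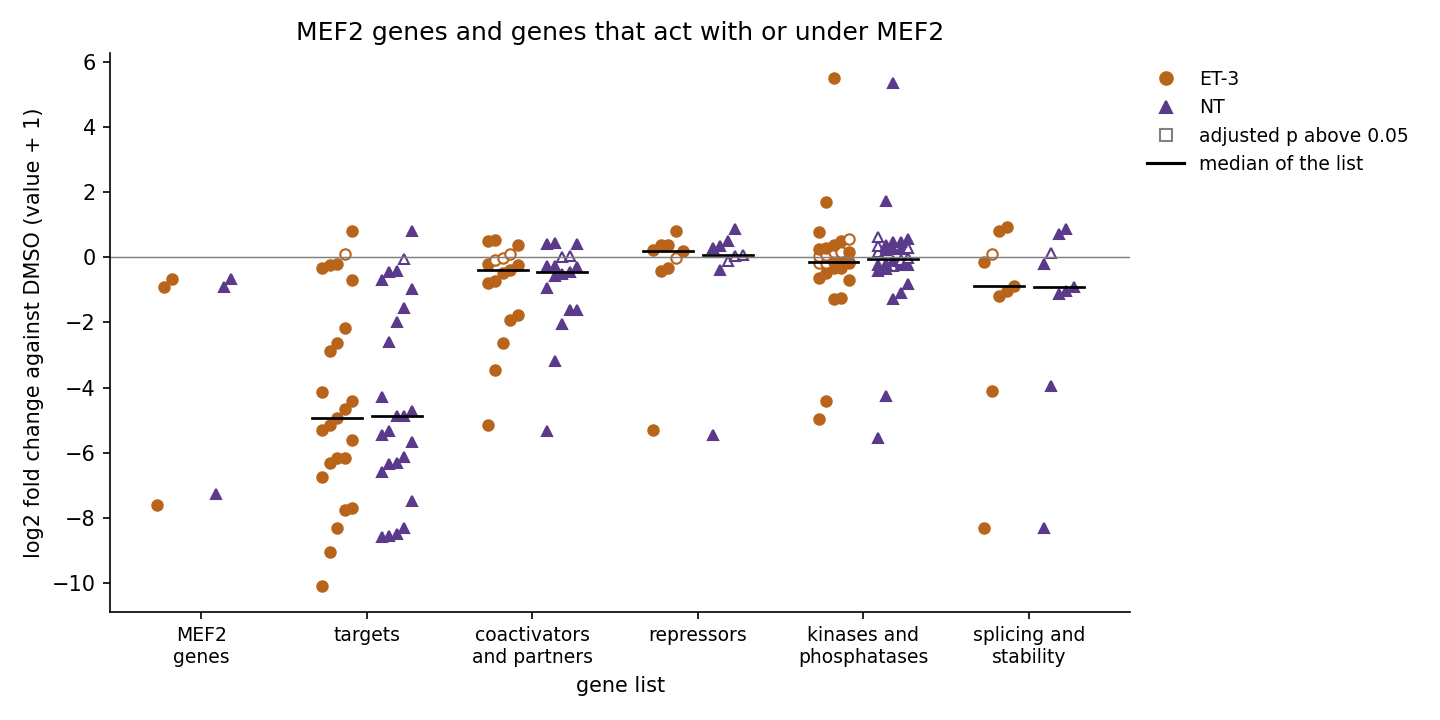
Log2 fold change against DMSO of log2(value + 1) (vertical axis) for the MEF2 genes and the members of 5 gene lists (horizontal axis), with circles for ET-3, triangles for NT, open symbols for adjusted p above 0.05 and bars for list medians. The target list has medians of −4.93 and −4.88, while medians of the other lists lie between −0.91 and 0.18.

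Markers of MuSCs and of other cells were set beside these changes. All 10 muscle stem cell and myogenic markers were listed, with a summed value of 9569 to 10484 under DMSO, 9229 to 9519 under ET-3 and 7963 to 8316 under NT. Of the 9 tested, 4 were lower and 3 higher under ET-3, and 5 lower and 3 higher under NT. Over all tested genes, 33.2% and 32.5% were lower and 30.6% and 29.7% higher. Pax7, the defining gene of MuSCs, rose from 857 and 1070 to 1754 and 1730 under ET-3 and 1653 and 1599 under NT (limma adjusted p = 9.75e-06 and 2.48e-05), a call lost with treated pairs averaged (limma adjusted p = 0.0848 and 0.102). Cdh15, the muscle cadherin, fell from 1547 and 1746 to 483 and 462 under ET-3 and 496 and 436 under NT (log2 fold change −1.80 and −1.82, SE 0.07), and passed under every alternative tried. All 6 smooth muscle and pericyte markers were listed, and their sum fell from between 1810 and 1877 to between 447 and 525. In each comparison 4 of 4 tested genes were lower, against 33.2% and 32.5% of all tested genes. The Cspg4 call under NT was lost with library totals, with treated pairs averaged and without either DMSO library or NT replicate 1. Abcc9, a potassium-channel subunit also used by muscle, went from 851 and 835 to between 0 and 4. Pdgfrb went from 227 and 278 to between 3 and 13. The defining smooth muscle gene Myh11 was at 0 to 4 and Kcnj8 at 0 to 2 in every library.

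Mef2c is also active in endothelial cells, whose listed markers (5 of 7) summed to 62 to 64 under DMSO, 118 to 122 under ET-3 and 98 to 128 under NT. The higher sums rest on Tek, at 2 and 1 under DMSO and 42 to 70 in the treated libraries, while Vwf was at 38 and 52 and then at 13 to 26. Of 4 tested, 1 was lower in each comparison, 2 were higher under ET-3 and 3 under NT. Of all tested genes, 33.2% and 32.5% were lower and 30.6% and 29.7% higher. Kdr, at 16 and 6 under DMSO and 23 to 26 after treatment, lost its calls with no filter and with the 2 groups alone. Kdr also lost them without any single library other than DMSO replicate 1. Pecam1 lost its NT call with no filter and without DMSO replicate 2 or NT replicate 1. Vwf lost its calls without either DMSO library, under ET-3 also without ET-3 replicate 1 and under NT without NT replicate 1. Apart from Tek, the called genes also lost their calls with treated pairs averaged. Pecam1 lay at 3 to 15 and Cdh5 at 0 to 5 in every library. Fibroadipogenic markers (4 of 6 listed) summed to 204 to 211 under DMSO and 70 to 97 in the treated libraries. Col1a1 made up most of that difference, at 148 and 146 under DMSO and 2 to 8 after treatment, whereas Ly6a was called higher (27 and 18, then 37 to 52), a call lost with treated pairs averaged and without DMSO replicate 2, either ET-3 library or NT replicate 2, and Pdgfra was at 20 to 44. Of 3 tested, 1 was lower in each comparison, 1 was higher under ET-3 and 2 under NT. Again, 33.2% and 32.5% of all tested genes were lower and 30.6% and 29.7% higher. The Pdgfra call under NT was lost with no filter, with the 2 groups alone and with treated pairs averaged. It was also lost without any single library other than DMSO replicate 2. Blood markers (3 of 7 listed) summed to 21 to 46 and Schwann cell markers (3 of 5) to 32 to 69 over all libraries. The part of smooth muscle, pericyte, endothelial and fibroadipogenic RNA in the MEF2 values was not tested.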

How the data were processed

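Single-end RNA-seq of MuSCs was analysed in 6 libraries, 2 each for DMSO, ET-3 and NT, grouped by their labels. The series' design text speaks of triplicates, and 2 libraries per group were analysed here. The sources differ on how the authors made the table: the paper describes trimming with Reaper and a stranded kit, whereas the labels name the SMART-Seq HT Kit and the submitters' processing notes list Trimmomatic 0.38, STAR 2.7.7a, featureCounts 1.6.5, DESeq2 1.30.0 and mm10. The deposited values are used as a read signal per gene: counts that the authors multiplied by 1 factor per library and rounded, a step read from the values. In 3 libraries with factors above 1, 13, 16 and 9 whole numbers below 101 cannot be reached by scaled reads, and 0 genes lie at them. Factors were estimated from how often each whole number up to 150 occurs.

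Values were tested as log2(value + 1) with limma 3.58.1 in R 4.3.3 (lmFit, contrasts and eBayes with trend, all 6 libraries in 1 fit). A mean value of at least 5 was required, which removed 5022 of 18943 genes. Benjamini-Hochberg adjustment ran over the 13921 tested genes in each comparison, with calls at adjusted p up to 0.05 and, where stated, at least a 2-fold change. DESeq2, which the authors used, was not run here because the values are scaled. Python 3.11.15 with numpy 2.4.6, pandas 2.3.3, scipy 1.17.1 and matplotlib 3.10.9 did the rest. Gene positions, lengths and overlaps come from GENCODE M21 (GRCm38), and promoters from RefSeq.

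The members and gene lists were chosen with earlier results of these data known. Genes named were the MEF2 family, class IIa deacetylases, in each list up to 6 genes with the largest mean change among those past adjusted p in both comparisons with DMSO, and the 3 genes most like each member. Others were named after their values were seen: Lysmd4, 1700113A16Rik, Des, Eno3, Nr4a1, Klf2, Jun, Pgam2, Meg3, Myod1, Myf5, Carm1, Maml1, Tcf3, Camk2d, Camk2g, Mapk11, Mapk12, Mapk14, Sik2, Sik3, Prkd2, Prkd3, Ptbp1 and the cell markers. Alternatives were no filter, pseudocounts of 0.5 and 5, scaling to library totals or upper quartiles, voom on recovered reads, a replicate block, the 2 groups alone, treated pairs averaged and leaving out each library. No columns of other samples were present. Results that need certain withheld items are not reported here.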

Additional observations from a re-analysis of the deposited data

How the results depend on the processing

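All 6 changes of Mef2a, Mef2c and Mef2d against DMSO kept their direction and passed limma's adjusted p under each of 15 alternatives, with a highest adjusted p of 0.0482 for Mef2d with NT when treated pairs were averaged. Replicate numbers did not pair the libraries (correlations of −0.008, −0.07 and −0.022), and a replicate block left the changes at −7.60 and −7.27 for Mef2c, −0.90 and −0.91 for Mef2a and −0.68 and −0.68 for Mef2d, but gave 0 lower and 0 higher genes between NT and ET-3 (4 and 7 without it). Leaving out 1 library gave −7.74 to −7.45 and −7.33 to −7.21 for Mef2c, −0.94 to −0.86 and −0.94 to −0.87 for Mef2a, and −0.74 to −0.61 and −0.75 to −0.62 for Mef2d. Between NT and ET-3, the differences of Mef2a and Mef2d, within error of 0, turned to 0.01 and 0.02 with library totals and ranged from −0.04 to 0.03 and −0.05 to 0.04 with 1 library left out (positive without NT replicate 2 at 0.03, and without ET-3 replicate 2 at 0.04). Genes called between NT and ET-3 were 0 and 0 with no filter, with the 2 groups alone, with treated pairs averaged and with any 1 library left out. They were 2 lower with pseudocount 0.5, 7 lower with voom and 4 higher with pseudocount 5. With treated pairs averaged, genes called higher against DMSO fell from 922 to 464 with ET-3 and from 1016 to 473 with NT. In that setting, with fewer samples in the fit, counts for the gene lists also moved. They are given with each list above, beside the shares of all tested genes. Higher kinases with ET-3 ranged from 5 to 7 with 1 library left out (5 without DMSO replicate 2 or ET-3 replicate 2), against 8 in all libraries. Shares per longest transcript were 39.6%, 53.4% and 53.3% for Mef2a, 30.9%, 0.362% and 0.465% for Mef2c and 29.5%, 46.3% and 46.3% for Mef2d in DMSO, ET-3 and NT. Depth limits Mef2c in the treated libraries to 7 to 14 reads each.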
